A study of Mus musculus with 53 samples.

Results

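Goblet cell genes other than the mucins were followed across 11 groups of mouse intestinal libraries. The members were the 8 genes named at the outset, Atoh1, Spdef, Agr2, Tff3, Clca1, Fcgbp, Zg16 and Spink4, each found once by symbol among the 55421 rows of the count table. The 53 bulk RNA-seq libraries came from whole tissue of mice that all carried VilCreER+, a tamoxifen-inducible Cre recombinase driven by the Villin promoter in the intestinal epithelium, and were induced with tamoxifen. WT mice carried VilCreER+ alone. BA mice were VilCreER+ BrafV600E/+ Alk5fl/fl, in which the epithelium gained an activated BRAF kinase and lost the TGFβ type I receptor, and A mice were VilCreER+ Alk5fl/fl. Proximal colon was taken at day 30 after induction from BA (n = 5), BA given antibiotics (n = 5), A (n = 4), A given sulindac (n = 4) and WT mice (n = 4). The antibiotics, in drinking water from the day after tamoxifen, were ampicillin, neomycin trisulphate and metronidazole at 1 g/L each with vancomycin at 500 mg/L. Sulindac, an inhibitor of prostaglandin synthesis, was given in the same way at 0.4 g/L for 14 days. Proximal colon also supplied BA primary tumours (n = 4) and WT tissue (n = 3) with no day in the labels. From the small intestine came VilCreER+ APCfl/fl (n = 10, written Apcfl/fl below) and WT tissue (n = 6) at day 4, and VilCreER+ Apcfl/+ primary tumours (n = 5) with WT tissue (n = 3), again with no day. APC restrains Wnt signalling. The last pair of groups was on an inbred C57BL6/J background and all others on a mixed C57BL/6J background, and the labels gave no age, sex or batch.

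Goblet cells are the mucus-secreting cells of the intestinal epithelium and are more abundant in colon than in small intestine. Atoh1 is the transcription factor that commits epithelial progenitors to the secretory lineages where Notch signalling is low, and Spdef acts after it to drive goblet maturation. Agr2 is a disulphide isomerase of the endoplasmic reticulum needed for mucin folding. The other members encode proteins that goblet cells store and secrete with mucin. Tff3 is a trefoil peptide of mucosal repair, Clca1 a metalloprotease that processes mucus, Fcgbp a large mucus protein with von Willebrand domains, Zg16 a lectin that binds bacterial cell walls, and Spink4 a Kazal-type protease inhibitor.

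Promoter windows are shown as sequence context, and no link between them and the levels of the genes was tested. RefSeq windows of GRCm38.p6, from 250 bases before to 50 bases after the transcription start, were held for 4 of the 8 members. Tff3, Clca1, Zg16 and Spink4 had no entry. The windows lie at chr6:64728875-64729174 on the plus strand for Atoh1, chr17:27728902-27729201 on the minus strand for Spdef, chr12:35992675-35992974 on the plus strand for Agr2 and chr7:28070986-28071285 on the plus strand for Fcgbp, and each ends inside the gene. Each is written 5′ to 3′ on the strand of its gene, and capitals mark motif matches on either strand.
Atoh1: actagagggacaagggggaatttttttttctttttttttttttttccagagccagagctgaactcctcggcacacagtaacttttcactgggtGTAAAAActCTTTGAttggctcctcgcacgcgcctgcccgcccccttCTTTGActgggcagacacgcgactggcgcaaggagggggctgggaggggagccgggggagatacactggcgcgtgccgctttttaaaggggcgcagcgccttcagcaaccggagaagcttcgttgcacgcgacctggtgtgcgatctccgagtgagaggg
Spdef: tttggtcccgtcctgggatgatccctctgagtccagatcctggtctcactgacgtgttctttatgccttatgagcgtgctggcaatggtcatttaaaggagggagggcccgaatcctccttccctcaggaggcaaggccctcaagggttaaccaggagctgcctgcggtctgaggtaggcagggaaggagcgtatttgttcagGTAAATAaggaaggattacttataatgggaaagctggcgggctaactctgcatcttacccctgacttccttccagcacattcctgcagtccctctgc
Agr2: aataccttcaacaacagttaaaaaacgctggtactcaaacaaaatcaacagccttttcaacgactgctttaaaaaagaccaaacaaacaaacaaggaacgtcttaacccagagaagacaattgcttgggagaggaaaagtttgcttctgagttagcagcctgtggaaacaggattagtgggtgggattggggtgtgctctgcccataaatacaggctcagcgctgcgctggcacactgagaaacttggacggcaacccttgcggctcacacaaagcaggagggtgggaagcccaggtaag
Fcgbp: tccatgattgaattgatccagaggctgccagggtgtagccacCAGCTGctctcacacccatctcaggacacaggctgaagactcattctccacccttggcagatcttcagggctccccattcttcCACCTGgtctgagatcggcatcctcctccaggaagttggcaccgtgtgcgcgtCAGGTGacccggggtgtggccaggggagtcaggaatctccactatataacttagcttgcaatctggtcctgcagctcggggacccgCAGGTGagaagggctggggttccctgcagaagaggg

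The motifs below were searched on both strands, and no match overlapped another. CANCTG, the E-box bound by basic helix-loop-helix factors such as ATOH1, was matched 4 times in the Fcgbp window (−208, −125, −72 and 15 bases from the start) and is present in 51.4% of all 32817 windows. CTTTGA, the core of TCF/LEF sites, was matched at −148 and −110 in the Atoh1 window and is present in 16.0% of all windows. TNTTTAC, a forkhead core that was added to the search after the first look at the data, was matched at −157 in Atoh1 and −47 in Spdef, against 12.4% of all windows. ATCCGG, an ETS-type core, was matched in none of these windows and in 6.04% of all windows, and the Agr2 window held no match to any of them. These are matches of letters, not measured sites. GC content was 56.7% for Atoh1, 53.3% for Spdef, 47.3% for Agr2 and 58.3% for Fcgbp, beside a median of 52.7% over all windows.

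Library totals ranged from 516985 to 32824795 counts with a median of 18356900, and the 8 genes together took 0.0873% to 1.45% of the counts. The shallowest library, Apcfl/fl 1, still gave 6 counts of Atoh1 and 12 of Spdef. Levels are given as normalised CPM (counts scaled to library size, with TMM scaling over all libraries). The deletions remove part of a gene, so gene-level counts do not check the genotypes. Apc ran from 36.5 to 147 normalised CPM in Apcfl/fl and from 64.4 to 111 in day-4 WT. The region and cell markers set several libraries apart. Apcfl/+ tumour 2, labelled small intestine, summed to 28.4 normalised CPM over 5 small intestine genes where the other four tumours held 2845 to 8351, and its Hoxb13, a distal gut gene chosen after its values were seen, was 241. BA tumour 2 summed to 1486 over the same genes against 179 to 225 in the other three, with a Paneth marker sum of 464. WT colon 2 differed from WT colon 1 and 3 in the colon gene Aqp8 (395 against 27 and 6.72) and in the goblet mucin Muc2 (4424 against 12687 and 21869). Apcfl/fl 8 was the lowest of its group in Apc (36.5 against 111 to 147) and also in the untargeted genes Tgfbr1 (24.6, others up to 65.5) and Braf (12.5 against 29.3 to 37.4). Results that rest on these libraries are given with and without them.

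**Figure D1:**
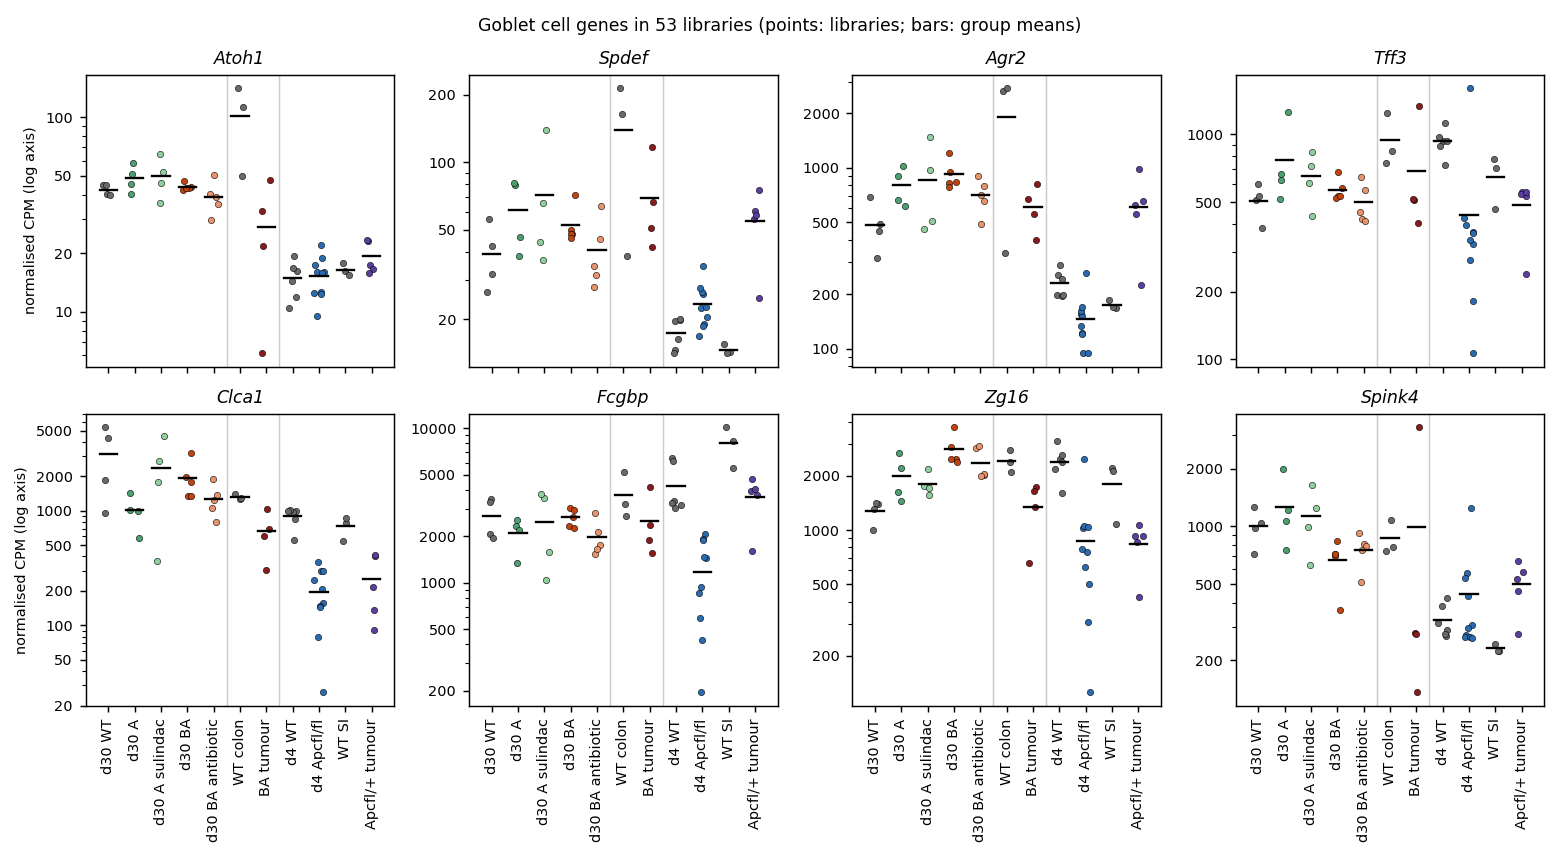
Normalised CPM (log axis) of the 8 genes in 53 libraries, with 1 point per library and a bar at each group mean; grey marks WT. Atoh1, Spdef, Agr2 and Spink4 lay higher in all colon WT libraries than in all small intestinal WT libraries, and single libraries (BA tumour 2 for Spink4, Apcfl/fl 8 for Tff3 and Zg16) lay far above the rest of their groups.

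Levels of several members differed between the WT groups of colon and small intestine. Per kilobase of exon, the scale on which genes can be set beside each other, Spink4, Tff3 and Zg16 were the 3 highest members in day-30 WT colon (2099.8 ± 473, 1029 ± 187 and 1021 ± 153 CPM per kb, mean ± SD, n = 4), and the transcription factors Atoh1 (20 ± 1.34) and Spdef (16.9 ± 5.59) were the lowest. In day-4 WT small intestine the order began with Zg16 (1907 ± 403) and Tff3 (1892 ± 260.5), and Atoh1 (7.02 ± 1.55) and Spdef (7.54 ± 1.19) again closed it. Between groups Tff3 was the most even member, with a ratio of highest to lowest group mean of 2.15. The same ratio was 3.33 for Zg16, 5.47 for Spink4, 6.79 for Fcgbp, 6.80 for Atoh1, 9.53 for Spdef, 13.1 for Agr2 and 15.9 for Clca1. When the 11 groups were ranked by mean, the ranges of neighbouring groups overlapped in every one of the 10 steps for 6 of the members. Agr2 had 2 steps without overlap and Spink4 had 1, so the order of neighbouring groups is otherwise within the spread of the libraries. Regions and cohorts differ in these rankings, and each group was therefore tested against its own WT. At day 30, antibiotic BA was also tested against BA, sulindac A against A, and BA against A.

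The transcription factors gave the following values in the groups. Atoh1 (GRCm38 chr6:64729125-64731245, plus strand) averaged 42.5 ± 2.83 (SD, n = 4) normalised CPM in day-30 WT colon, 101 ± 47.1 (SD, n = 3) in WT colon without a day, 14.9 ± 3.3 (SD, n = 6) in day-4 WT small intestine and 16.5 ± 1.24 (SD, n = 3) in the other WT small intestine. Spdef (chr17:27714352-27728955, minus strand) averaged 39.1 ± 12.9 (SD, n = 4), 139 ± 91.1 (SD, n = 3), 17.4 ± 2.75 (SD, n = 6) and 14.6 ± 0.789 (SD, n = 3) in the same order. Both were higher in every colon WT library than in any small intestinal WT library. Agr2 (chr12:35992907-36004087, plus strand) averaged 486 ± 153 (SD, n = 4), 1921 ± 1373 (SD, n = 3), 230.3 ± 39.3 (SD, n = 6) and 174 ± 9.48 (SD, n = 3) in those groups. The secreted products are encoded at chr17:31125306-31129646 (Tff3, minus strand), chr3:145003817-145032776 (Clca1, minus strand), chr7:28071236-28120862 (Fcgbp, plus strand), chr7:127050156-127087328 (Zg16, minus strand) and chr4:40920052-40931395 (Spink4, plus strand). Fcgbp averaged 2703 ± 820.4 (SD, n = 4) in day-30 WT colon, 3711 ± 1305 (SD, n = 3) in the other WT colon, 4235 ± 1589 (SD, n = 6) in day-4 WT small intestine and 7991 ± 2357 (SD, n = 3) in the other WT small intestine, and its colon and small intestinal ranges overlapped. Of the Fcgbp transcript, 10.3% of 36-base stretches occur in another gene as well, nearly all in 9530053A07Rik, so part of its count is uncertain. Zg16 overlaps Gm22747 and Gm44939 on the other strand, and the strand setting of the counting was not given in the sources used here.

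The first comparison asked how goblet genes stood in BA tumours against WT colon. Atoh1 read 47.9, 6.13, 32.9 and 21.8 normalised CPM in the tumours and 142, 49.7 and 113 in WT colon, and the groups did not overlap. Agr2 read 812, 554, 669 and 401 in the tumours and 2655, 337 and 2771 in WT colon. The tumours all lay below WT colon 1 and 3, and WT colon 2 lay below all of them. None of the 8 genes passed the test in edgeR (background: 13.2% of 19188 genes tested), although DESeq2 called 3 (Atoh1, Clca1 and Agr2, all lower). In edgeR 3 had an unadjusted p under 0.05, a looser threshold to which that background does not apply. The log2 fold change was -1.94 ± 0.57 (SE, adjusted p = 0.0559) for Atoh1 and -1.69 ± 0.63 (SE, adjusted p = 0.114) for Agr2. Spdef, at 117, 41.9, 66.5 and 51 in tumours and 215, 38.1 and 164 in WT colon, gave -1.05 ± 0.53 (SE, adjusted p = 0.233). In bulk tissue fewer goblet cells and less RNA per goblet cell cannot be told apart, here or below.

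Among the secreted products of the BA tumours, Clca1 read 1043, 302, 699.8 and 599.98 normalised CPM against 1263, 1286 and 1411 in WT colon, with a log2 fold change of -1.03 ± 0.40 (SE, adjusted p = 0.128). Zg16 read 1742, 658, 1650.1 and 1335 against 2771, 2105 and 2377 and gave -0.87 ± 0.42 (SE, adjusted p = 0.216). All tumour values of these secreted proteins lay below all WT values. Fcgbp and Tff3 gave -0.61 ± 0.49 (adjusted p = 0.47) and -0.47 ± 0.47 (adjusted p = 0.568) and overlapped. Spink4 was split within the tumours, with 277, 3309.8, 273 and 136 against 744, 1077 and 777 in WT colon, so that a single library set its log2 fold change of 0.22 ± 1.00 (SE, adjusted p = 0.917). The median over the 8 genes was -0.95, beside 0.029 over all genes tested.

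BA tumour 2 and WT colon 2 decided most calls. Without BA tumour 2 and WT colon 2, an alternative chosen after seeing the data, 5 members were lower: Atoh1 at -1.94 (adjusted p = 0.00658), Spdef at -1.32 (adjusted p = 0.0319), Agr2 at -2.15 (adjusted p = 0.00807), Tff3 at -1.11 (adjusted p = 0.0383) and Spink4 at -1.77 (adjusted p = 0.0112). WT colon 2 had been set apart partly by its low Muc2, itself a goblet gene, and it held the lowest WT values of Atoh1, Spdef and Agr2. BA tumour 2 held the highest tumour values of Tff3 and Spink4 but the lowest of Atoh1 and Spdef. The choice of libraries was therefore not independent of goblet expression, and these calls add no separate support. The background share above belongs to the fit of all libraries, and none is given for the fits that leave libraries out. Without BA tumour 2 alone Atoh1 (-1.62), Tff3 (-1.03) and Spink4 (-1.96) passed. Leaving out WT colon 2 alone gave Atoh1 (-2.28), Spdef (-1.51) and Agr2 (-2.20), and leaving out BA tumour 1 gave Atoh1 alone (-2.31). Markers of other cells moved in this comparison: 7 of 10 immune markers were higher in the tumours (median log2 fold change 2.35, beside -0.060 for the epithelium markers), 1 of 4 tested Paneth markers was higher, and 3 of 6 enteroendocrine markers and 2 of 4 colon identity genes were lower. Of stroma and muscle markers 2 of 10 were higher and 2 lower, of epithelium 1 of 10 was higher, of small intestine identity 1 of 5 was lower, and no tuft marker of 5 passed. The part of these in the result was not tested. Ddx3y, a Y-linked gene, was above 10 CPM in 3 of 4 tumours and 0 of 3 WT libraries. With a term for it the effect is that of BA tumour 1 alone against WT colon, so the term cannot check the group. The pseudogene Gm13394 was above 10 CPM in 3 of 4 tumours, not the same 3, and in 0 of 3 WT libraries. With a term for it the effect is that of BA tumour 2 alone against WT colon, with Spink4 at 1.95, and says nothing about the group.

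**Figure D2:**
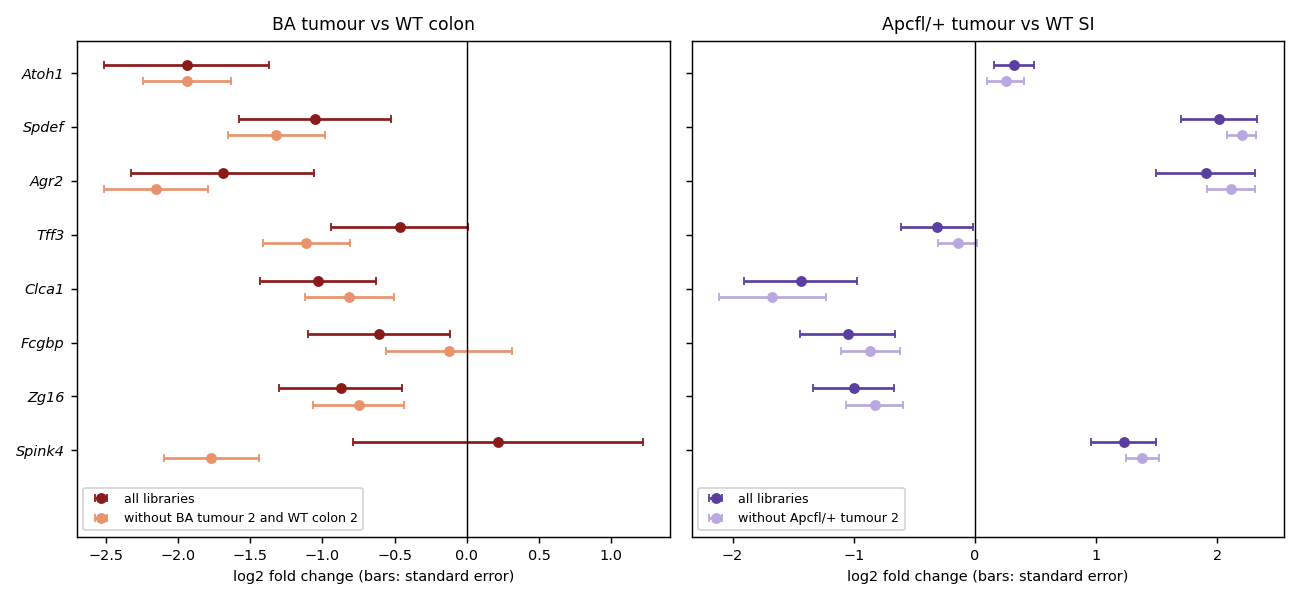
Log2 fold changes of the 8 genes with standard errors in BA tumours against WT colon (left) and Apcfl/+ tumours against WT small intestine (right), with all libraries (dark) and without the libraries that stand apart (light). On the left Spink4 moved from 0.22 to -1.77 and Tff3 from -0.47 to -1.11; on the right each gene kept its sign.

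The wider goblet lists were read against the same 13.2% of all genes in BA tumours. Of 15 secretory fate genes none passed, with 2 of 20 mucin glycosylation and secretion genes lower, namely Nlrp6 at -2.00 ± 0.37 (SE, adjusted p = 0.0104), an inflammasome sensor tied to mucus release, and Pdia5 at -1.11 ± 0.28 (SE, adjusted p = 0.0307), a disulphide isomerase. Pdia5 was no longer called without BA tumour 3 (-1.09) or 4 (-0.99), or WT colon 1 (-1.06) or 3 (-0.91). Of 7 other goblet products tested Sval1 was higher at 2.69 ± 0.47 (SE, adjusted p = 0.00864), which did not pass without WT colon 1 (2.48). Muc2, the main gel-forming mucin, gave -0.78 ± 0.89 (adjusted p = 0.619).

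At day 30 BA colon differed from WT colon in 3 of the 8 genes, with Zg16 and Agr2 higher and Spink4 lower (background: 55.1% of 17471 genes). Zg16 read 2907, 2491, 2481, 3738 and 2399.7 normalised CPM in BA and 1005, 1399.9, 1308 and 1422 in WT, a rise of 2.16-fold with a log2 fold change of 1.11 ± 0.15 (SE, adjusted p = 0.000104). Agr2 read 837, 946, 822, 1208 and 787 in BA and 688, 450.4, 318 and 489 in WT and rose 1.88-fold, at 0.91 ± 0.20 (SE, adjusted p = 0.00224). In both genes every BA library lay above every WT library. Spink4 read 722, 701, 719.7, 368 and 843 in BA and 715, 981, 1049 and 1262 in WT, with overlap through WT 1, and fell at -0.59 ± 0.21 (SE, adjusted p = 0.0335). The share of members called was below the share of all genes.

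The fate factors did not pass on this scale. Atoh1 lay between 42.4 and 46.9 in BA and between 39.8 and 45.1 in WT, at 0.035 ± 0.067 (adjusted p = 0.675), and Spdef gave 0.42 ± 0.20 (SE, adjusted p = 0.0946). Clca1 varied from 955 to 5388 among the WT libraries and gave -0.71 ± 0.43 (SE, adjusted p = 0.188). Tff3 (0.15 ± 0.13) and Fcgbp (-0.038 ± 0.18) did not pass. The Spink4 call was lost without WT 2 (-0.60), WT 3 (-0.57) or WT 4 (-0.46) and with all day-30 groups in 1 fit (-0.59 (adjusted p = 0.094)). Without WT 1 Spdef (0.63) and Clca1 (-1.01) passed as well.

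Epithelium markers moved with this comparison. Of 10 epithelium markers 9 were higher in BA (median 0.73, summed level 24521 to 28127 against 12508 to 14945 normalised CPM in WT), and 7 of 10 stroma and muscle markers were lower, and their part in the members' result was not tested. Of the other lists, 2 of 8 immune markers, 1 of 2 Paneth markers and 4 of 4 colon identity genes were lower, 3 of 4 small intestine identity genes were higher, enteroendocrine markers split 1 to 1 of 6, and no tuft marker of 5 passed. Scaled to the epithelium genes, which shifts the median of all genes by -1.00 on the log2 scale, 6 members were lower: Atoh1 at -0.96 (adjusted p = 2.83e-06), Spdef at -0.58, Tff3 at -0.84, Clca1 at -1.70, Fcgbp at -1.04 and Spink4 at -1.60 (adjusted p = 1e-05). On that scale Agr2 was at -0.082 (adjusted p = 0.721) and Zg16 at 0.14 (adjusted p = 0.45). Genes in general move down on it, so the count of lower members is not a result about them. Atoh1, Spdef and Tff3 fell by no more than the shift. The direction for Atoh1, Spdef, Tff3 and Agr2 thus turned with the scale, while Spink4 was lower on both. Per 1000 counts of the epithelium genes, Spink4 spanned 15 to 30 in BA and 56.1 to 97.6 in WT, without overlap, and Atoh1 1.52 to 1.83 against 2.66 to 3.6.

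**Figure D3:**
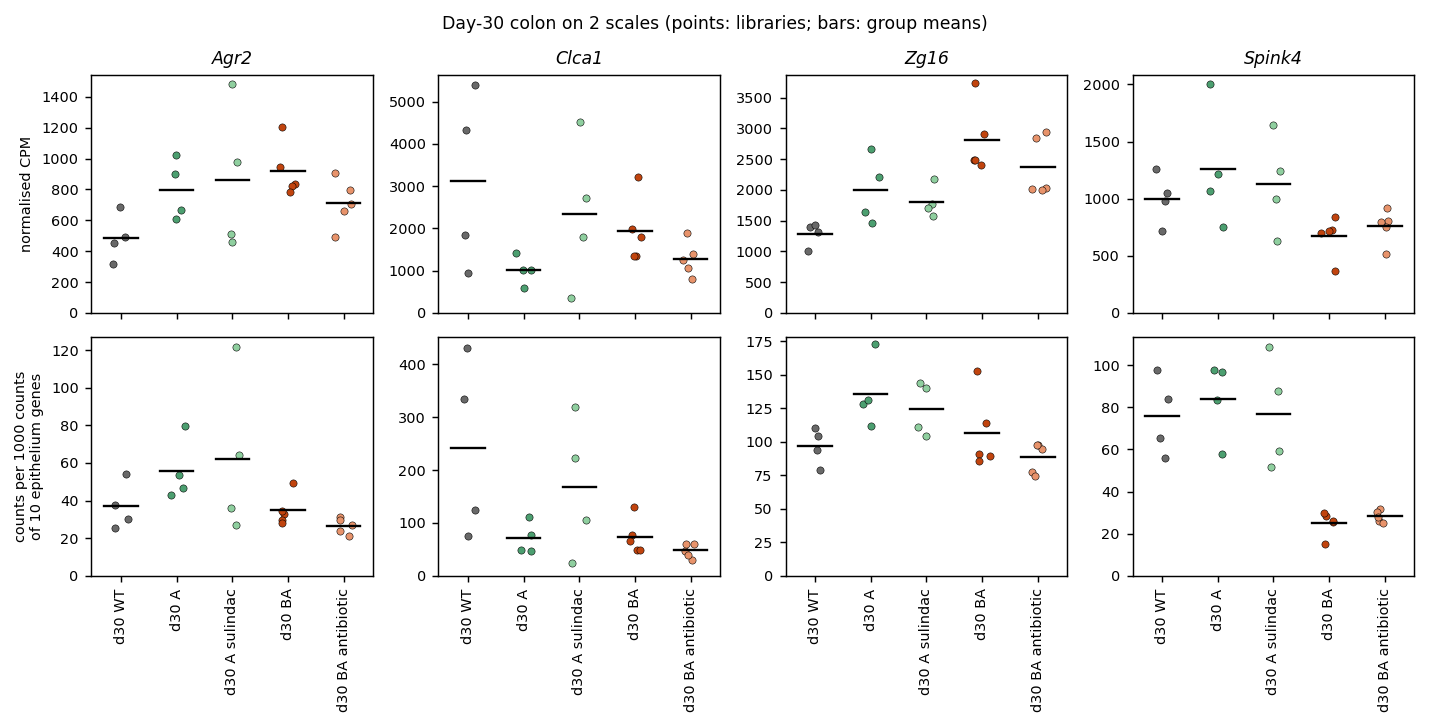
Agr2, Clca1, Zg16 and Spink4 in the 5 day-30 colon groups, as normalised CPM (top) and per 1000 counts of 10 epithelium genes (bottom), with 1 point per library and bars at group means. Zg16 in BA lay above WT at the top and overlapped WT at the bottom; Spink4 in BA lay below WT at the bottom without overlap.

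Genes around the members moved in both directions in day-30 BA colon. Of 14 secretory fate genes 3 were higher, led by the forkhead factor Foxa3 (0.71 ± 0.07 (SE, adjusted p = 1.03e-05)), and 3 lower, led by the Notch ligand Dll4 (-1.05 ± 0.13 (SE, adjusted p = 6.85e-05)). Among 7 other goblet products Sval1 was higher (4.72 ± 0.46 (SE, adjusted p = 9.41e-06)) and 4 were lower, the most by the antimicrobial ribonuclease Ang4 (-3.88 ± 0.86 (SE, adjusted p = 0.00261)). The mucin glycosylation and secretion list held 9 higher and 5 lower of 20, from Gal3st2, a sulphotransferase (-1.38 ± 0.23 (SE, adjusted p = 0.000496)), to Sytl2, a vesicle docking protein (1.29 ± 0.18 (SE, adjusted p = 0.000105)). Foxa3 turned to -0.28 on the epithelium scale. Muc2 was at -0.049 ± 0.22 (adjusted p = 0.862).

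BA mice on antibiotics, against the same day-30 WT libraries, showed Zg16 higher and Clca1 lower (2 of 8, background 39.6% of 17569 genes). Zg16 read 2844, 2945, 2013, 2036 and 1997 normalised CPM, all above WT, and rose 1.85-fold at 0.89 ± 0.16 (SE, adjusted p = 0.00143). Clca1 read 1384, 1889, 1251, 804 and 1064 against 955, 1847, 5388 and 4322 in WT, where WT 1 and WT 2 lay within the antibiotic range, and fell at -1.28 ± 0.44 (SE, adjusted p = 0.0405). That call did not pass without antibiotic BA 1 (-1.32), 4 (-1.18) or 5 (-1.24), or without WT 3 (-0.91) or WT 4 (-1.10). Without WT 1, 4 members passed, Agr2 (0.76) and Spink4 (-0.54) being added. Agr2 also passed without antibiotic BA 3 (0.64) and Fcgbp without antibiotic BA 2 (-0.63). DESeq2 called 3 members, Agr2 being added. With all libraries Agr2 gave 0.55 ± 0.21 (SE, adjusted p = 0.0661) and Spink4 -0.40 ± 0.17 (SE, adjusted p = 0.0902).

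Markers of other cells also differed between antibiotic BA and WT, groups that differ in genotype as well as in antibiotics. Of 10 epithelium markers 9 were higher (median 0.81), none of 10 stroma and muscle markers passed, and 3 of 8 immune, 1 of 2 Paneth, 1 of 6 enteroendocrine, 1 of 5 tuft and 4 of 4 colon identity genes were lower while 3 of 4 small intestine identity genes were higher. Scaled to the epithelium genes, with a shift of -0.99 over all genes, 7 members were lower and Zg16 was at -0.13 (adjusted p = 0.329). Given that shift, the count is not a result about the members. Secretory fate genes split into 2 higher and 3 lower of 14, from Dll4 (-0.85 ± 0.12) to the membrane-bound transcription factor Creb3l1 (0.50 ± 0.16). Of 6 other goblet products 4 were lower, led by Ang4 (-3.66 ± 0.99), and Sval1 was higher (3.35 ± 0.44). Mucin glycosylation and secretion genes split into 5 higher and 8 lower of 20, from Gal3st2 (-1.44 ± 0.27) to Bcas1 (1.01 ± 0.10). Creb3l1 did not pass without antibiotic BA 1, 2, 4 or 5 or WT 2, 3 or 4, at log2 fold changes from 0.35 to 0.50. Muc2 was at -0.35 ± 0.23 (adjusted p = 0.264).

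Set against untreated BA, antibiotics moved none of the 8 genes past the test (background: 13% of 16680 genes), and DESeq2 called 1, Fcgbp. In edgeR 2 had an unadjusted p under 0.05, to which that background does not apply. Fcgbp read 2132, 2833, 1539, 1751 and 1660.1 with antibiotics and 3059, 2346, 2649, 2954 and 2276 without, at -0.42 ± 0.16 (SE, adjusted p = 0.103). Agr2 gave -0.37 ± 0.15 (adjusted p = 0.127) and Clca1 -0.60 ± 0.27 (adjusted p = 0.162). Without antibiotic BA 1, Atoh1 (-0.27) and Spdef (-0.58) passed, and without antibiotic BA 2 Fcgbp did (-0.58). The mucin glycosylation and secretion list fell in 8 of 20 genes, from the fucosyltransferase Fut2 (-1.16 ± 0.19 (SE, adjusted p = 0.00324)) to C1galt1c1, the chaperone of core O-glycan synthesis (-0.37 ± 0.10 (SE, adjusted p = 0.0279)), and none rose. Of 14 secretory fate genes the progenitor factor Sox9 (-0.58 ± 0.13 (SE, adjusted p = 0.0138)) and Foxa3 were lower and the Notch ligand Dll1 higher (0.45 ± 0.12 (SE, adjusted p = 0.0336)), and Sval1 (-1.38 ± 0.30) was the only other goblet product of 6 to pass. The Dll1 and C1galt1c1 calls did not hold in 7 and 6 of the 10 fits that left out 1 library (ranges over all 10 fits: Dll1 0.39 to 0.53, C1galt1c1 -0.43 to -0.29). No epithelium, stroma and muscle, immune or Paneth marker passed, while 1 enteroendocrine and 1 tuft marker and 1 colon identity gene were lower and 1 small intestine identity gene higher. Muc2 was at -0.31 ± 0.14 (adjusted p = 0.154).

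Loss of ALK5 alone left the 8 genes without a call at day 30 (background: 0.141% of 17713 genes), and DESeq2 called 0. At an unadjusted p under 0.05 in edgeR there were 5, a looser threshold to which that background does not apply. Clca1 read 1025, 582, 1004 and 1420.3 normalised CPM in A against 955, 1847, 5388 and 4322 in WT, at -1.63 ± 0.48 (SE, adjusted p = 0.441). Zg16 read 2667, 1634, 1455 and 2215 in A, above all WT libraries, at 0.64 ± 0.21 (SE, adjusted p = 0.471). Agr2 read 897, 667, 612 and 1021 in A, where A 2 and A 3 lay below the highest WT library, at 0.72 ± 0.24 (SE, adjusted p = 0.48). Spdef (0.66 ± 0.29), Tff3 (0.61 ± 0.26), Spink4 (0.34 ± 0.28), Atoh1 (0.21 ± 0.13), Fcgbp (-0.35 ± 0.25) and Muc2 (0.24 ± 0.36) did not pass either. A 1 and A 3 carried small intestine transcripts, with Apoa1 at 191 and 64 normalised CPM where A 2 and A 4 had 0.427 and 0.208. Without A 1, Tff3 was at 0.26 and Spink4 at 0.025. Without A 3 they were at 0.76 and 0.52.

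With sulindac, A mice also showed no call against WT (background: 0.0507% of 17742 genes), and DESeq2 called 0. At an unadjusted p under 0.05 in edgeR, to which that background does not apply, there was 1 member. That member was Zg16, at 1764, 1713, 2180.2 and 1570.00 normalised CPM and 0.50 ± 0.16 (SE, adjusted p = 0.459). Spdef (0.89 ± 0.40) and Agr2 (0.83 ± 0.38) were high in sulindac A 2, which read 139.7 and 1487 normalised CPM. Atoh1 (0.24 ± 0.16), Tff3 (0.37 ± 0.21), Clca1 (-0.41 ± 0.68), Fcgbp (-0.12 ± 0.39), Spink4 (0.18 ± 0.28) and Muc2 (0.53 ± 0.51) did not pass either. Against untreated A none of the 8 passed (background: 0% of 17568 genes), with 0 at an unadjusted p under 0.05 and 0 called by DESeq2. Clca1 ranged from 362 to 4520 with sulindac and from 582 to 1420 without, at 1.25 ± 0.59 (SE, adjusted p = 1), and the others spanned -0.23 ± 0.30 for Tff3 to 0.26 ± 0.41 for Fcgbp, with Muc2 at 0.30 ± 0.55. No gene of any list passed in A against WT, in A with sulindac against WT or in A with sulindac against A.

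BA against A, both lacking ALK5 and differing in BrafV600E/+, gave 3 calls of 8 (background: 45.3% of 17128 genes). Clca1 read 1988, 1801, 1345, 3208 and 1348 in BA and 1025, 582, 1004 and 1420.3 in A and was higher at 0.96 ± 0.30 (SE, adjusted p = 0.022). Spink4 read 722, 701, 719.7, 368 and 843 in BA and 2005, 1218, 753 and 1067 in A and was lower at -0.89 ± 0.27 (SE, adjusted p = 0.0194). Zg16 was higher at 0.51 ± 0.19 (SE, adjusted p = 0.0494), which did not pass in 8 of the 9 fits that left out 1 library (range 0.42 to 0.67). Spink4 did not pass without A 1 (-0.59), nor Clca1 with all day-30 groups in 1 fit (0.93 (adjusted p = 0.153)). A 1 and A 3 carried small intestine transcripts, and the part of these in the calls here and the marker counts below was not tested. Tff3 (-0.41 ± 0.21), Fcgbp (0.35 ± 0.18), Agr2 (0.22 ± 0.18), Spdef (-0.20 ± 0.22) and Atoh1 (-0.14 ± 0.11) did not pass. These comparisons at day 30 share libraries with each other, so their values are not independent.

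Here too 9 of 10 epithelium markers were higher (median 0.70) and 4 of 10 stroma and muscle markers lower, with 2 of 8 immune, 3 of 3 Paneth, 1 of 4 colon identity and 1 of 4 small intestine identity genes lower, 1 small intestine identity gene and 1 of 6 enteroendocrine markers higher, and no tuft marker of 5. On the epithelium scale, with a shift of -0.91, 6 members were lower, among them Spink4 at -1.75 (adjusted p = 1.42e-05), Tff3 at -1.24 (adjusted p = 3.26e-05) and Atoh1 at -1.07 (adjusted p = 0.000211), and Clca1 was at 0.062 (adjusted p = 0.857). Given the shift, that count is not a result about the members. Secretory fate genes split 2 higher and 4 lower of 14, from Dll4 (-1.05 ± 0.13) to the goblet differentiation factor Klf4 (0.51 ± 0.12). Of 7 other goblet products the resistin-like Retnlb (-2.09 ± 0.34) and 2 more were lower and Ang4 higher (1.53 ± 0.27). Mucin glycosylation and secretion genes split 7 higher and 6 lower of 20, from Gal3st2 (-1.40 ± 0.26) to C1galt1, the core O-glycan synthase (1.34 ± 0.19), and Muc2 was at -0.26 ± 0.28 (adjusted p = 0.482). The pseudogene Gm13394 was above 10 CPM in every A and BA library at day 30 and in 0 of 4 WT libraries, so that genotype and whatever these reads mark cannot be told apart in the comparisons with WT.

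The small intestine was also compared 4 days after induction of the Apcfl/fl deletion. Clca1, Fcgbp, Zg16 and Agr2 were lower and Spdef was higher, 5 of 8 members (background: 54.2% of 17536 genes). Clca1 ran from 26 to 357 with a median of 182 in Apcfl/fl and from 560.1 to 1021 with a median of 980.3 in WT, a 4.45-fold fall at -2.16 ± 0.38 (SE, adjusted p = 0.000146). Fcgbp ran from 194 to 2064 with a median of 1185 in Apcfl/fl and from 3032 to 6407 with a median of 3311 in WT, a 3.51-fold fall at -1.81 ± 0.40 (SE, adjusted p = 0.00115). For both mucus proteins every Apcfl/fl library lay below every WT library. Zg16 ran from 125 to 2468 with a median of 771 against from 1599 to 3135 with a median of 2435 and fell 2.6-fold at -1.38 ± 0.44 (SE, adjusted p = 0.013), with Apcfl/fl 8 alone reaching into the WT range. Agr2 ran from 94.4 to 261 with a median of 143 against from 195 to 291 with a median of 221 and fell at -0.60 ± 0.21 (SE, adjusted p = 0.0241).

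Spdef ran from 16.8 to 34.6 with a median of 22.5 in Apcfl/fl and from 14.1 to 20 with a median of 18 in WT, overlapping, and was 1.38-fold higher at 0.47 ± 0.16 (SE, adjusted p = 0.0221). Atoh1 gave 0.088 ± 0.17 (adjusted p = 0.691) and Spink4 0.53 ± 0.35 (adjusted p = 0.216). Tff3 ran from 106 to 1613 with a median of 353 against from 730.2 to 1127 with a median of 935, at -0.99 ± 0.44 (SE, adjusted p = 0.0649). DESeq2 called Tff3 too, 6 members in all. Its single high library was Apcfl/fl 8, and without that library Tff3 passed at -1.58 (adjusted p = 3.3e-05). Without Apcfl/fl 1 and 8 together the same genes passed, with Tff3 added at -1.58 and Zg16 at -1.83. Spdef lost its call without WT 2 (0.41) or WT 3 (0.41), and Agr2 without WT 6 (-0.52) and on the epithelium scale (-0.35 (adjusted p = 0.121)), whose shift over all genes was 0.28. Apcfl/fl 6 and 7 held the lowest values of Tff3, Clca1, Fcgbp and Zg16.

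The wider goblet programme divided in the same tissue. Of 15 secretory fate genes 7 were higher and 3 lower, from Dll1 (-1.01 ± 0.13 (SE, adjusted p = 1.02e-05)) to Sox9 (2.48 ± 0.20 (SE, adjusted p = 1.53e-07)). Muc2 fell at -1.96 ± 0.31 (SE, adjusted p = 5.23e-05), and of the 5 other goblet products tested, Muc2 among them, the antiprotease Wfdc2 was higher (1.64 ± 0.64 (SE, adjusted p = 0.0386)). Mucin glycosylation and secretion genes fell in 9 and rose in 3 of 20, from Bcas1 (-2.25 ± 0.33 (SE, adjusted p = 3.09e-05)) to Fut2 (2.42 ± 0.93 (SE, adjusted p = 0.0362)). Wfdc2 and Fut2 did not pass without Apcfl/fl 5 (0.78 and 0.67) and in 5 fits each that left out 1 WT library (lowest 1.48 and 2.28). Markers of other cells moved as well: 4 of 6 enteroendocrine, 4 of 5 tuft, 5 of 10 immune, 5 of 5 small intestine identity and 2 of 3 colon identity genes were lower, 1 of 5 Paneth markers was higher, epithelium split 1 higher and 2 lower of 10, and no stroma and muscle marker of 10 passed. Their part in the result was not tested.

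Apcfl/+ tumours of the small intestine differed from WT in 6 of the 8 genes (background: 61.5% of 20567 genes), and the members divided. Spdef read 60.4, 24.9, 55.7, 75.3 and 58.1 normalised CPM in the tumours and 15.5, 14.2 and 14.1 in WT, 4.04-fold higher at 2.01 ± 0.32 (SE, adjusted p = 0.00079). Agr2 read 558, 225, 619.6, 984 and 652 and 169, 169 and 185, 3.74-fold higher at 1.90 ± 0.41 (SE, adjusted p = 0.00363). Spink4 read 575, 276, 663, 534 and 462 and 225, 243 and 224, 2.34-fold higher at 1.23 ± 0.27 (SE, adjusted p = 0.00385). In these genes every tumour lay above every WT library, with tumour 2 the lowest of the tumours each time.

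The mucus proteins went down in the same tumours. Clca1 read 137, 406, 91.8, 215 and 411 against 784, 544 and 863 in WT, 2.71-fold lower at -1.44 ± 0.47 (SE, adjusted p = 0.0246). Fcgbp read 3906, 1599, 4042, 3696 and 4701 against 8243, 5519 and 10212, 2.07-fold lower at -1.05 ± 0.39 (SE, adjusted p = 0.0418). Zg16 read 927, 424, 1062, 927 and 864 against 2211, 1075 and 2135, 2-fold lower at -1.00 ± 0.33 (SE, adjusted p = 0.0279). Again no values of the groups overlapped. Atoh1 (0.32 ± 0.16, adjusted p = 0.114) and Tff3 (-0.32 ± 0.30, adjusted p = 0.374) did not pass. The median log2 fold change over the 8 was 0.0047, beside 0.027 over all genes tested.

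All of these calls held without tumour 2, the library that lacked small intestine transcripts, at 2.20 for Spdef, 2.11 for Agr2, 1.38 for Spink4, -1.67 for Clca1, -0.86 for Fcgbp and -0.83 for Zg16. The higher 3 held in every fit that left out 1 library. The lower 3 were lost without WT small intestine 1 (Clca1 -1.38, Fcgbp -1.02, Zg16 -0.82) or 3 (-1.29, -0.82 and -0.85). Clca1 was also lost without tumour 4 (-1.39), and Fcgbp without tumour 1 (-1.10), 3 (-1.11) or 4 (-1.07). Ddx3y was above 10 CPM in 1 of 5 tumours and 3 of 3 WT libraries. With a term for it the effect is that of Apcfl/+ tumour 1 alone against WT, so the term cannot check the calls of the group. Gm13394 was above 10 CPM in 0 of 5 tumours and 3 of 3 WT libraries. Tumour status and whatever these reads mark therefore cannot be told apart, and the contrasts that use these tumours share this limit. Epithelium markers were higher in 6 and lower in 1 of 10, stroma and muscle higher in 5 and lower in 2 of 10, immune higher in 2 and lower in 3 of 10, Paneth higher in 1 and lower in 3 of 5, tuft 1 and 1 of 6, and colon identity 1 and 2 of 4; 4 of 6 enteroendocrine and 3 of 5 small intestine identity genes were lower. The shift on the epithelium scale was -0.45 over all genes, and Tff3 was then lower as well at -0.84 (adjusted p = 0.00994).

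The wider goblet lists were read against the same 61.5% of all genes, called higher or lower, in Apcfl/+ tumours. More genes were higher than lower in each list. Epithelium markers leaned the same way, with 6 higher and 1 lower of 10, and their part in these counts was not tested. Of 15 secretory fate genes 8 were higher and 3 lower, from Dll1 (-1.14 ± 0.26 (SE, adjusted p = 0.0046)) to the membrane-bound transcription factor Creb3l4 (2.49 ± 0.41 (SE, adjusted p = 0.00096)). Of 8 other goblet products 6 were higher, by most the gastric trefoil peptide Tff1 (7.89 ± 1.69 (SE, adjusted p = 0.00369)), and Ang4 (-2.66 ± 0.33 (SE, adjusted p = 0.00024)) and Muc2 (-0.87 ± 0.25 (SE, adjusted p = 0.0162)) were lower. Mucin glycosylation and secretion genes were higher in 9 and lower in 2 of 20, from Gal3st2 (-1.53 ± 0.44 (SE, adjusted p = 0.0143)) to Fut2 (5.05 ± 0.37 (SE, adjusted p = 2.63e-05)). Muc2 did not pass without WT small intestine 3 (-0.62) and Gal3st2 without WT small intestine 1 (-1.26).

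**Figure D4:**
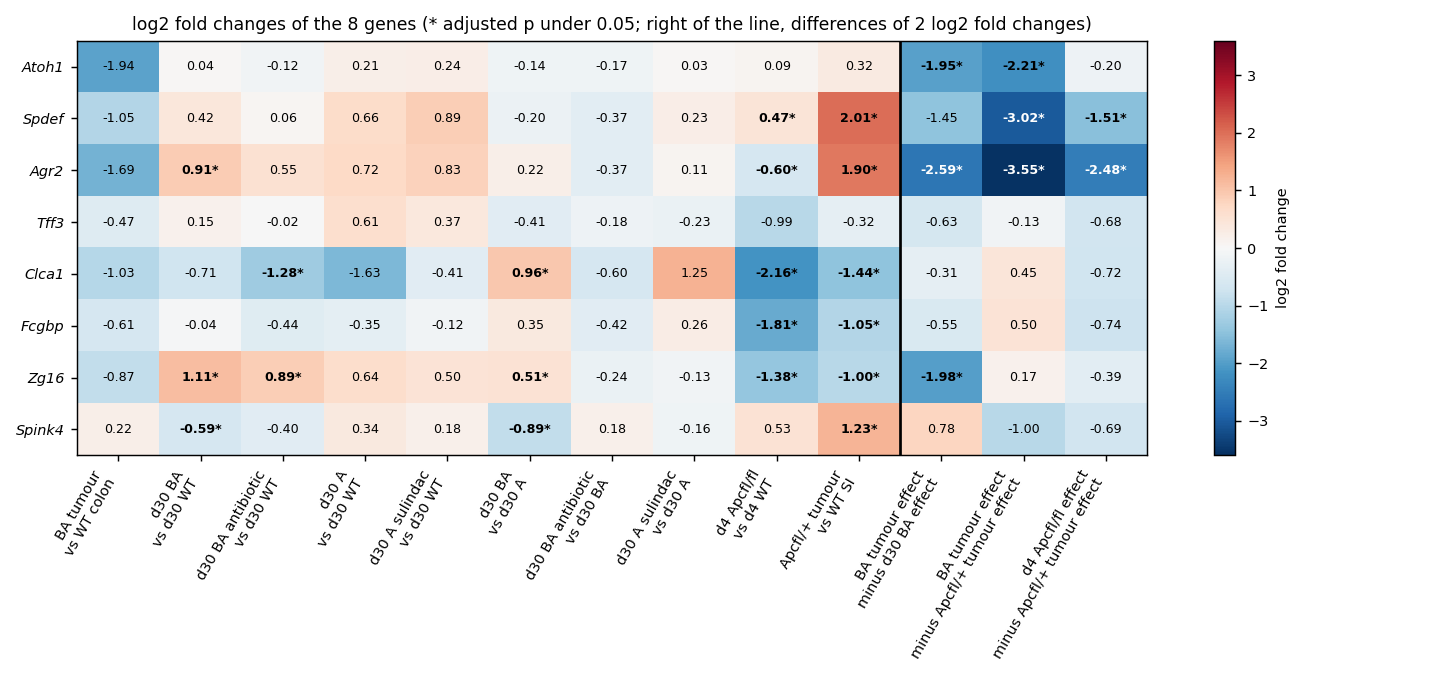
Log2 fold changes of the 8 genes (rows) in the 10 comparisons and, right of the line, 3 differences of fold changes; colour runs from lower (blue) to higher (red) and an asterisk marks an adjusted p under 0.05. Spdef and Agr2 were at 2.01 and 1.90 in Apcfl/+ tumours and at -1.05 and -1.69 in BA tumours.

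The differences between the tumour types were then tested in 1 fit each, taking every tumour group against its own WT. Between BA tumours and Apcfl/+ tumours 3 members differed, all lower in the BA effect (background: 39.7% of 21668 genes). The difference was -3.55 ± 0.80 (SE, adjusted p = 0.00393) for Agr2, -3.02 ± 0.68 (SE, adjusted p = 0.00418) for Spdef and -2.21 ± 0.66 (SE, adjusted p = 0.0169) for Atoh1. Clca1 (0.45 ± 0.66), Fcgbp (0.50 ± 0.61), Zg16 (0.17 ± 0.53), Tff3 (-0.13 ± 0.56) and Spink4 (-1.00 ± 1.10) did not pass. Without the libraries that stand apart, the calls numbered 5, with Agr2 at -4.35, Spdef at -3.61, Atoh1 at -2.28, Tff3 at -1.05 and Spink4 at -3.24. Atoh1 was lost without WT colon 1 (-1.88) and Spink4 gained without BA tumour 2 (-3.23). Region, background strain and genotype differ together between these tumour groups and cannot be told apart.

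The wider lists gave the same test 2 higher and 7 lower of 15 secretory fate genes, from Creb3l4 (-4.14 ± 0.71) to the secretory maturation factor Bhlha15 (1.37 ± 0.45). Of 8 other goblet products 3 were lower, by most Tff2 (-9.34 ± 2.62), and Ang4 was higher (3.93 ± 0.77), while Muc2 was at 0.15 ± 0.89 (adjusted p = 0.905). The mucin glycosylation and secretion list was lower in 8 of 20, from Fut2 (-4.51 ± 0.47) to C1galt1c1 (-1.25 ± 0.39), and higher in none. Of the marker lists 5 of 5 Paneth and 5 of 10 immune markers and 1 small intestine identity gene of 5 were higher in the BA effect, 1 of 6 tuft and 1 of 4 colon identity genes lower, epithelium 1 higher and 3 lower of 10, and stroma and muscle (10) and enteroendocrine (6) held none.

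BA tumours also differed from day-30 BA colon, each against its own WT, in 3 members (background: 16.3% of 20637 genes). Zg16 differed by -1.98 ± 0.38 (SE, adjusted p = 0.00246), Agr2 by -2.59 ± 0.64 (SE, adjusted p = 0.0116) and Atoh1 by -1.95 ± 0.57 (SE, adjusted p = 0.0276), all lower in the tumour effect. The WT groups themselves differed. Mean Agr2 was 1921 normalised CPM in WT colon without a day and 486 in day-30 WT. It was 609 in BA tumours and 920 in day-30 BA. In the same order Atoh1 was at 101, 42.5, 27.2 and 43.9, and Zg16 at 2418, 1284, 1346 and 2803. The part of the WT groups in these differences was not tested. Spdef (-1.45 ± 0.59), Tff3 (-0.63 ± 0.44), Fcgbp (-0.55 ± 0.44), Clca1 (-0.31 ± 0.66) and Spink4 (0.78 ± 1.01) did not pass. Without BA tumour 2 and WT colon 2 the calls numbered 5, with Agr2 at -2.99, Atoh1 at -1.90, Zg16 at -1.79, Spdef at -1.66 and Tff3 at -1.18. Zg16 and Agr2 held in each fit that left out 1 library. Atoh1 was lost without BA tumour 4 (-1.81), WT colon 1 (-1.71), WT colon 3 (-1.89) or day-30 WT 1 (-1.87). Spdef passed without BA tumour 1 (-1.84) or WT colon 2 (-1.83), and 5 members passed without BA tumour 2, Tff3 (-1.11) and Spink4 (-1.30) being added. Epithelium markers were lower in the tumour effect in 6 of 10, enteroendocrine in 5 of 6, and 1 small intestine and 1 colon identity gene were lower, while 4 of 10 stroma and muscle, 7 of 10 immune and 1 of 4 Paneth markers were higher and no tuft marker of 5 passed. Foxa3 (-1.80 ± 0.41) was lower and Dll4 (0.99 ± 0.28) higher of 15 secretory fate genes, Ang4 (5.11 ± 1.27) was higher of 7 other goblet products, and Bcas1 (-1.33 ± 0.42) and C1galt1c1 (-1.14 ± 0.33) were lower of 20 mucin glycosylation and secretion genes.

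Acute loss of Apc and Apcfl/+ tumours were compared in the same way, and 2 members differed (background: 24.7% of 22202 genes). Agr2 differed by -2.48 ± 0.42 (SE, adjusted p = 0.000243) and Spdef by -1.51 ± 0.31 (SE, adjusted p = 0.0014), both lower in the day-4 effect. For Agr2 the signs were opposite, a fall at day 4 and a rise in tumours. Background strain, Apc genotype and tissue (day-4 tissue or primary tumour) differ together between these groups and cannot be told apart. Clca1 (-0.72 ± 0.66), Fcgbp (-0.74 ± 0.66), Zg16 (-0.39 ± 0.69), Tff3 (-0.68 ± 0.67), Spink4 (-0.69 ± 0.53) and Atoh1 (-0.20 ± 0.26) did not pass, so a difference between the falls of the mucus proteins was not detected. Without Apcfl/fl 8 the calls numbered 4, Tff3 (-1.24) and Spink4 (-1.04) being added, and without Apcfl/fl 1 and 8 and Apcfl/+ tumour 2 Agr2 was at -2.84 and Spdef at -1.72. Of 15 secretory fate genes 4 were lower and 1 higher, from Creb3l4 (-2.41 ± 0.36) to the enteroendocrine factor Neurog3 (2.86 ± 0.56). Other goblet products were lower in 4 and higher in 1 of 8, from Sval1 (-6.66 ± 1.76) to Ang4 (2.52 ± 0.59), and mucin glycosylation and secretion genes were lower in 12 of 20, from Bcas1 (-2.29 ± 0.54) to Pdia5 (-0.83 ± 0.25). Epithelium and stroma and muscle were each lower in 5 of 10, immune 1 higher and 4 lower of 10, tuft 3 lower of 6, Paneth 2 higher of 5, enteroendocrine 1 higher of 6, colon identity 1 lower of 4, and small intestine identity held none of 5.

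Within groups the members did not move as 1 block. After each group mean was taken away, the pair with the highest correlation of log2 CPM over the 53 libraries was Spdef and Agr2 (Pearson r = 0.84), followed by Tff3 and Zg16 (0.75), Tff3 and Spink4 (0.69) and Clca1 and Fcgbp (0.68). Atoh1 and Spink4 were at -0.35. For Atoh1 and Spdef r was 0.49, and for Spdef and Fcgbp 0.015. These are descriptions over libraries that share depth and tissue make-up with each gene, and no test is given. The 5 genes outside the members that followed their mean most closely, among 16634 genes, were Capn9 (r = 0.81), Tpsg1 (0.77), Sh2d6 (0.72), Bcas1 (0.67) and Tcea3 (0.67). Without the 2 libraries farthest from the median of the members' mean these fell to 0.67, 0.76, 0.70, 0.46 and 0.64.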

How the data were processed

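Whole-tissue RNA of 53 libraries was sequenced as paired reads. Per the labels and the study's methods, the authors trimmed reads with Trim Galore 0.6.4, checked them with FastQC 0.11.8, aligned them to GRCm38 with HISAT2 2.1.0 and counted genes with featureCounts 1.6.4. The deposited values are raw counts per gene, with 267 of 55421 rows lacking a symbol. Groups came from the labels. The study describes its replicates in general as independent animals, and the labels do not name the animal of each library. Each comparison used edgeR 4.0.16 (R 4.3.3), filterByExpr, TMM scaling and the two-sided quasi-likelihood test, adjusted by Benjamini-Hochberg over all genes tested, with a threshold of 0.05. The fit used only the groups compared, and the differences of effects used a contrast over 4 groups. Fits were tested on simulated data. Log2 fold changes are given ± SE. Normalised CPM use 1 scaling over all libraries, and correlations log2 CPM with a prior count of 2.

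All 8 members are named in every comparison. From each list (secretory fate, other goblet products, mucin glycosylation and secretion) the called genes with the largest and smallest fold change are named, and Muc2 always; members and lists were chosen with earlier results of these data known. Marker lists (epithelium, stroma and muscle, immune, Paneth, enteroendocrine, tuft, small intestine identity, colon identity) are described by counts. Alternatives were DESeq2 1.42.0, RLE scaling, no low-count filter, a replicate block, epithelium scaling, Ddx3y and Gm13394 terms, 1 fit of the day-30 groups, and leaving out libraries. Background shares belong to the main edgeR fits. Counts of members in alternative fits, or at an unadjusted p, have no share of all genes beside them. Such counts are therefore not results about the members. Same-numbered libraries did not correlate in every pair of any comparison (lowest r -0.47, highest 0.28), so the numbers were not treated as pairs.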

Additional observations from a re-analysis of the deposited data

Results flagged for a closer look

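Over 72 sets of 1 gene in 1 group of 4 to 10 libraries, 9 had a highest or lowest library whose gap to the rest passed Dixon's 95% criterion, where chance gives about 5% of sets. Apcfl/fl 8 was the highest of its group in Tff3 (1613 normalised CPM, next 424), Zg16 (2468, next 1049.7), Agr2 (261, next 171) and Spink4 (1247, next 575). BA tumour 2 was the highest of its group in Spink4 (3309.8, next 277) and Tff3 (1334, next 518). Apcfl/+ tumour 2 was the lowest of its group in Tff3 (239, next 535). In day-30 BA colon, library 4 was the highest in Spdef (71.2, next 49.7) and library 1 in Atoh1 (46.9, next 43.7).

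The effects of 4 genes differed between settings when the difference itself was tested (edgeR, adjusted over all genes). Between BA tumours and day-30 BA colon the differences were -1.95 for Atoh1, -2.59 for Agr2 and -1.98 for Zg16 on the log2 scale. Between BA and Apcfl/+ tumours they were -2.21 for Atoh1, -3.02 for Spdef and -3.55 for Agr2. Between day-4 Apcfl/fl tissue and Apcfl/+ tumours they were -1.51 for Spdef and -2.48 for Agr2. In this order 3, 3 and 2 of 8 members were called, beside 16.3%, 39.7% and 24.7% of all genes. For both contrasts with Apcfl/+ tumours the count is near that share. Agr2 is the member present in all of these, but the contrasts share libraries and are not independent. Both contrasts of the BA tumour effect use the same WT colon, where Agr2 ranged from 337 to 2771 normalised CPM. The other overlap is in Apcfl/+ tumours and their WT.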

How the results depend on the processing

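The RLE scaling and DESeq2 kept all 27 calls of the members. Under DESeq2, members called numbered 3 for BA tumours against WT colon (otherwise 0) and 1 for antibiotic BA against BA (otherwise 0). It also raised antibiotic BA against WT from 2 to 3 and day-4 Apcfl/fl from 5 to 6. With no low-count filter, members called numbered 2 for BA tumours against WT colon (otherwise 0). Signs turned under it for Zg16 -0.027 and Muc2 -0.080 in BA minus Apcfl/+ tumours. With a Gm13394 term, the effect in BA tumours against WT colon came from BA tumour 2 alone. Signs turned under it for Tff3 0.51 in BA tumours against WT colon. With a Ddx3y term, the effect came from Apcfl/+ tumour 1 alone in Apcfl/+ tumours against WT, and from BA tumour 1 alone in BA tumours against WT colon. Signs turned under it for Fcgbp 0.075, Spink4 -1.74 and Muc2 0.51 in BA tumours against WT colon. Without the libraries that stand apart (chosen after seeing the data, WT colon 2 partly by Muc2), members called numbered 5 for BA tumours against WT colon (otherwise 0), 5 for BA tumours minus day-30 BA (otherwise 3), 5 for BA minus Apcfl/+ tumours (otherwise 3) and 4 for day-4 Apcfl/fl minus Apcfl/+ tumours (otherwise 2). Signs turned under it for Spink4 -1.77 in BA tumours against WT colon, Spink4 -1.11 in BA tumours minus day-30 BA and Zg16 -0.0014 and Muc2 -0.22 in BA minus Apcfl/+ tumours. Scaled to the epithelium genes, members called numbered 6 for BA against WT at day 30 (otherwise 3), 7 for antibiotic BA against WT (otherwise 2) and 6 for BA against A (otherwise 3). Genes in general moved down on that scale in these comparisons. Signs turned under it for Atoh1 -0.96, Spdef -0.58, Tff3 -0.84, Agr2 -0.082 and Foxa3 -0.28 in BA against WT at day 30, Spdef -0.97, Agr2 -0.47, Zg16 -0.13, Creb3l1 -0.51 and Bcas1 -0.0028 in antibiotic BA against WT, Fcgbp -0.53, Agr2 -0.68, Zg16 -0.36 and Klf4 -0.43 in BA against A, Atoh1 -0.0042 in sulindac A against A and Atoh1 -0.11 in Apcfl/+ tumours against WT. With all day-30 groups in 1 fit, members called numbered 1 for antibiotic BA against WT (otherwise 2). It also lowered BA against WT and BA against A from 3 to 2 each, and added no member. Leaving out 1 library at a time gave counts of members called of 0 to 3 for BA tumours against WT colon, 2 to 5 for BA against WT at day 30, 1 to 4 for antibiotic BA against WT, 0 to 2 for antibiotic BA against BA, 3 to 6 for Apcfl/+ tumours against WT, 2 to 5 for BA tumours minus day-30 BA and 2 to 4 for day-4 Apcfl/fl minus Apcfl/+ tumours. Signs of log2 values turned in BA tumours against WT colon, Spink4 -1.96 to 0.59, in BA against WT at day 30, Fcgbp -0.17 to 0.11, Muc2 -0.21 to 0.22, in antibiotic BA against WT, Spdef -0.17 to 0.28, Tff3 -0.15 to 0.057, in A against WT, Muc2 -0.23 to 0.51, in sulindac A against WT, Fcgbp -0.39 to 0.14, Spink4 -0.058 to 0.39, Muc2 -0.33 to 0.81, in BA against A, Muc2 -0.37 to 0.24, in sulindac A against A, Atoh1 -0.10 to 0.15, Spdef -0.33 to 0.44, Tff3 -0.38 to 0.11, Fcgbp -0.019 to 0.52, Agr2 -0.31 to 0.31, Zg16 -0.26 to 0.035, Spink4 -0.36 to 0.16, Muc2 -0.58 to 0.77, in day-4 Apcfl/fl against WT, Atoh1 -0.0021 to 0.18, in BA tumours minus day-30 BA, Clca1 -0.68 to 0.033, Spink4 -1.30 to 1.20, in BA minus Apcfl/+ tumours, Tff3 -0.76 to 0.13, Zg16 -0.12 to 0.31, Muc2 -0.92 to 0.71. The cause of these moves was not tested. Ddx3y and Gm13394 terms could not be fitted in the day-30 comparisons, nor Gm13394 in Apcfl/+ tumours. The lowest count of any member in any library was 6 (Atoh1 in Apcfl/fl 1), so depth limits Atoh1 there.

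Replicate numbers are shared between groups but did not pair the libraries. With the replicate block, members called numbered 1 for BA tumours against WT colon (otherwise 0). Signs turned under it for Spink4 -0.55 in BA tumours against WT colon, Fcgbp 0.063 and Muc2 0.11 in BA against WT at day 30, Tff3 0.046 in antibiotic BA against WT, Agr2 -0.027 in sulindac A against A and Muc2 -0.031 in BA minus Apcfl/+ tumours. The block also removed the calls of Spink4 in BA against WT (-0.70), Clca1 in antibiotic BA against WT (-0.98), Spdef in day-4 Apcfl/fl (0.30) and Fcgbp in Apcfl/+ tumours (-1.30), and added Spdef in BA against WT (0.50), Agr2 in antibiotic BA against WT (0.53) and Tff3 in day-4 Apcfl/fl (-1.46) and in its difference from Apcfl/+ tumours (-1.11).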
